A study of Mus musculus with 25 samples.

Results

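The loops described here join the ends of genes that neighbour or overlap each other. They were pairs of 1 kb bins in which each bin held an annotated end of a protein-coding mouse gene, the bins held ends of different genes, and the bin starts lay less than 100 kb apart. An end is the outermost base of a gene over all its RefSeq transcripts, so a start used by a shorter transcript can lie in another bin. They came from H3K27ac HiChIP of CD8+ T cells, in which DNA ends that touch in the nucleus are joined, fragments carrying the active chromatin mark H3K27ac are pulled down, and read pairs between bins are counted as contacts. Of 28033 loops listed in each of 6 libraries, 1147 were such gene-end loops.

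Active promoters carry H3K27ac, and contacts between promoters of neighbouring active genes are a common feature of gene-rich chromatin. In T cells, IL-2 acts through the transcription factor STAT5, and Il2ra, which encodes the alpha chain of the IL-2 receptor (CD25), is one of its targets. The immunity-related GTPases, the Gimap GTPases and the replication-dependent histones are families whose genes sit side by side, so that their ends can be joined by short loops.

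The cells were splenic CD8+ T cells of C57BL/6J mice with an intron deletion at Il2ra, with an upstream deletion at Il2ra, or wild type (WT), where both deletions were made with CRISPR. Before treatment they were stimulated for 2 days and rested for 4 h, then given IL-2 or left as control. Each genotype and treatment had 1 library, which made 3 IL-2 and 3 control libraries and 2 libraries per genotype. The labels name no separate animals, litters or clones, and the sources used here give neither the coordinates of the deletions nor the dose and duration of IL-2 in HiChIP. No gene-end loop lay at Il2ra itself: 1 shared loop had an anchor at an end of Il2ra, and it was not among the gene-end loops.

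The promoters below belong to the gene pairs on which the results turn, and they are shown so that the promoters of a pair can be compared letter by letter. Each lies in or next to an anchor bin of its loop. Each sequence is the 250 bases before the annotated start, 5′ to 3′ on the gene's own strand, from RefSeq on GRCm38.p6, with matches to the motifs named further on in capitals. Sdf2l1 and Ccdc116 were the pair with the largest rise with IL-2, and Cybc1 and Narf the pair with the largest fall.
Sdf2l1 (chr16:17132384-17132633, minus strand): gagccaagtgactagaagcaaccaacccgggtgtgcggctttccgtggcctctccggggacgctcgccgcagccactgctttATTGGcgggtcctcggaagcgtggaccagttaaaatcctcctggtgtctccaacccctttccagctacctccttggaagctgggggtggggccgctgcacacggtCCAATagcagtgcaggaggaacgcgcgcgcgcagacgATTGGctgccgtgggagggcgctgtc
Ccdc116 (chr16:17147230-17147479, minus strand): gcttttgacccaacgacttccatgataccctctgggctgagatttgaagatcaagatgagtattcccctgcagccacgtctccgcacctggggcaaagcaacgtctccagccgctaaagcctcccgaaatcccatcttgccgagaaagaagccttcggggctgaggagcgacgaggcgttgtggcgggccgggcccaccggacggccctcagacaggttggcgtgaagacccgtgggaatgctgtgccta
Cybc1 (chr11:121229310-121229559, minus strand): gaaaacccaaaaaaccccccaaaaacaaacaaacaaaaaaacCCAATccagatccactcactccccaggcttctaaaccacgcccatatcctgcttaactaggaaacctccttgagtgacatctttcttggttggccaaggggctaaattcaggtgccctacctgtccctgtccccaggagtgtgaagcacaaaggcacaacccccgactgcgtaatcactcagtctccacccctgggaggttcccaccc
Narf (chr11:121236986-121237235, plus strand): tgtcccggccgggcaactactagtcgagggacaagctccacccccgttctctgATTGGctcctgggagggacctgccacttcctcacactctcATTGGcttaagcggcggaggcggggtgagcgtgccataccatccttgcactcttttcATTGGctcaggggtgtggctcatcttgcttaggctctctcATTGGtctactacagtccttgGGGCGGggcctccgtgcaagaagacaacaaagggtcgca
Igtp and Irgm2, and H2bu2 and H2aw, were the pairs with the largest rises in the upstream deletion, and their loops rose in the intron deletion too.
Igtp (chr11:58199306-58199555, plus strand): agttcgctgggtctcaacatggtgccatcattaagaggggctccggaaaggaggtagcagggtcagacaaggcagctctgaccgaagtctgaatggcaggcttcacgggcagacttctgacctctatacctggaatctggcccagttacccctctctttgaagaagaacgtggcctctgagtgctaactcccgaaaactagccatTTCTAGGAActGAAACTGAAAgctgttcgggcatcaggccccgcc
Irgm2 (chr11:58214727-58214976, plus strand): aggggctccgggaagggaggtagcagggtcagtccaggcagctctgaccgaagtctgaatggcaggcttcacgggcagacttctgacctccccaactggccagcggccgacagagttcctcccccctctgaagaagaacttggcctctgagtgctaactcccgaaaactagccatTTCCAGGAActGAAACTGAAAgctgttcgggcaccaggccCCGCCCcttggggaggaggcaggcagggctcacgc
H2bu2 (chr11:58948661-58948910, plus strand): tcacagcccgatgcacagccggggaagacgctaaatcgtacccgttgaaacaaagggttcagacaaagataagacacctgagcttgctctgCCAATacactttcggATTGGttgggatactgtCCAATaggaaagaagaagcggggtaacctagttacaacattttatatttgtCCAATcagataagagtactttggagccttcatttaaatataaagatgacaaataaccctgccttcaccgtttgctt
H2aw (chr11:58954435-58954684, plus strand): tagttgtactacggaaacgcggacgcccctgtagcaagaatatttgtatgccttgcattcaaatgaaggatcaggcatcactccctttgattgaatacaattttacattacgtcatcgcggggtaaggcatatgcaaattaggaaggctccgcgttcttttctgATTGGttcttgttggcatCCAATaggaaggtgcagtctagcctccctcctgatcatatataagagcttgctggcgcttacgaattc
In capitals are CCAAT boxes (CCAAT, the sequence bound by NFY), GC boxes (GGGCGG, bound by SP and KLF factors), GAS sites (TTCNNNGAA, bound by STAT factors) and IRF sites (GAAA, any 2 bases, GAAA), on either strand. Igtp and Irgm2 each held 1 GAS site closely followed by 1 IRF site, and the promoters shared an identical run of 55 bases, with 172 of 250 bases in shared runs of 8 bases or more. H2bu2 held 4 CCAAT boxes and H2aw 2, Narf 4 and Sdf2l1 3, and Ccdc116 held none of the 11 motifs searched.

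The libraries listed 72743 and 38879 loops in the intron deletion with IL-2 and in control, 61168 and 56113 in the upstream deletion, and 94922 and 72698 in WT, so the WT library with IL-2 listed the most and the intron deletion control the fewest. Contact values below are scaled to equal depth over the shared loops by TMM, and every loop tested had at least 20 contacts in every library. Ends of 8 of 9 T cell marker genes lay in bins with a shared loop, against 0 of 3 NK cell, 1 of 4 B cell (Cd79a), 2 of 5 myeloid (Cd68 and Tyrobp), 1 of 3 CD4 or regulatory T cell (Ikzf2) and 0 of 3 erythroid markers. Fewer cells with a contact and fewer contacts per cell cannot be told apart in such bulk libraries.

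Most gene-end loops had a gene start at both anchors. By the strand of the genes, this held for 699 of the 1147 loops (60.9%). Another 162 (14.1%) joined a bin with a start to a bin with a finish and no start, and 2 had finishes without starts at both anchors. A bin with any start was counted as a start, even if it also held a finish, which favours the start classes. Ends of 2 or more genes lay in 251 of the 1460 anchor bins. The remaining 284 had an anchor whose genes have no strand in the promoter table, which gave a strand for 79.9% of protein-coding genes. Of the start-to-start loops, 259 joined genes that run the same way, 154 joined divergent genes, 109 joined convergent genes, and 177 had several starts in a bin.

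The loops were short, with a median distance of 18 kb. No whole gene lay between the anchors in 724 loops (63.1%), 1 or 2 lay between in 319, and 3 or more in 104. The anchors were 1460 bins with ends of 1566 genes, and 1015 of the bins had a single gene-end loop while 55 had 5 or more. Chromosome 19 held 131 gene-end loops (11.4%), against 4.31% of all shared loops. Chromosome 11 held as many, which is a smaller share than its share of all shared loops. At the distance limit, the longest loops inside it spanned 99 kb and joined Parp10 to Gpaa1 and Oplah, Pop7 to Mospd3, and Mat2a to Capg. Their means were 38.2, 39.3 and 50.5 contacts, where values at the limit are raw counts not scaled to depth. Just outside it, Bag6 to Nfkbil1 at 101 kb had a mean of 32.0 raw contacts. Plekhj1 and Sf3a2 to Timm13 and Cdk4 to B4galnt1, both at 102 kb, had 39.3 and 39.8.

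Relative to the coverage of their anchors, gene-end loops had more contacts than loops between intergenic bins at short distances and fewer at long distances. Contacts were divided by the geometric mean of the coverage of both anchor bins, the number of reads in a bin, and the median was taken over the loops of a class in each library. From 5 to under 10 kb, the medians were 25.8 to 27.6 contacts per 1000 reads of coverage in gene-end loops over the 6 libraries, against 22.4 to 23.5 in loops between intergenic bins, 24.8 to 25.9 in loops inside one gene and 27.4 to 28.3 in loops from a gene end to an intergenic bin. From 50 to under 100 kb gene-end loops were below all 3 classes, with 7.78 to 8.71 in gene-end loops, 10.57 to 12.04 in loops from a gene end to an intergenic bin, 11.66 to 12.97 between intergenic bins and 10.28 to 11.46 in loops inside one gene. Gene-end loops were below loops from a gene end to an intergenic bin in all 6 libraries at both distances, while against the other classes they were above at the short and below at the long distance in all 6. At 20 to under 50 kb they were already below all 3 classes in all 6 libraries. With the ranges 10 to under 20 kb and 20 to under 50 kb included, 12 comparisons were made. Of these, 11 reached p = 0.0312 in an exact permutation test within libraries (two-sided, adjusted p = 0.0341), where 0.0312 is the smallest p that 6 libraries allow. The exception was loops inside one gene at 10 to under 20 kb, where both means were 19.1 (adjusted p = 0.906 in the same test). The comparison of classes was added after seeing the data, and the 6 libraries share the same loops, so its p does not measure the spread between loops. The coverage of the anchors moved with it: at 50 to under 100 kb the median coverage was 4670 reads in gene-end loops, against 3492, 3086 and 3259 in those 3 classes, and since every loop had to reach 20 contacts, bins with more coverage could enter at a lower ratio. The part of this limit in the difference was not tested. Before division by coverage, median scaled contacts at 50 to under 100 kb were 36.9 in gene-end loops. They were 35.3 in loops from a gene end to an intergenic bin, 35.2 between intergenic bins and 33.1 inside one gene.

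**Figure D1:**
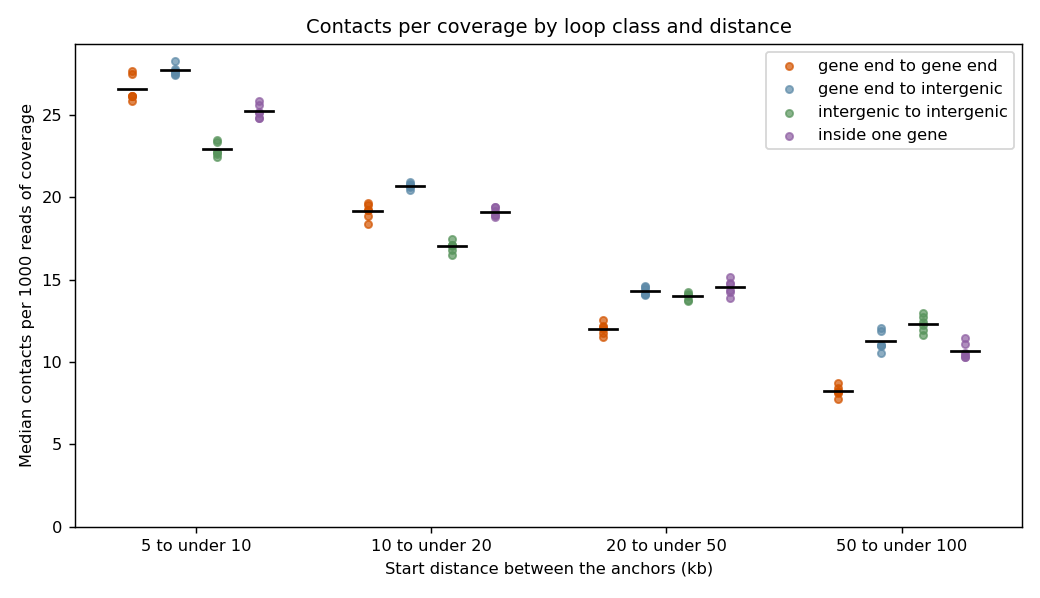
Median contacts per 1000 reads of anchor coverage (y axis) by start distance (x axis) in 4 classes of shared loops, with 1 point per library and a bar at the mean of the 6 libraries. Gene-end loops lie above intergenic loops at 5 to under 10 kb and below the other 3 classes at 50 to under 100 kb, where they span 7.78 to 8.71.

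Histone genes, Il4ra and Igtp were at some of the strongest gene-end loops. H4c14 to H2bc18 and H3c13, histone genes 6 kb apart on chromosome 3, averaged 231.5 scaled contacts over the 6 libraries. Next came Nsmce1 to Il4ra at 226.9, where Nsmce1 encodes a subunit of the SMC5/6 complex and Il4ra a chain of the IL-4 receptor. That loop spanned 61 kb, and the other 9 of the 10 strongest spanned 5 to 15 kb. It held 249.6 and 216 contacts in the intron deletion with IL-2 and in control, 268 and 245 in the upstream deletion, and 215 and 168 in WT. The 4 deletion values were thus no lower than WT, but 216 in the intron deletion control and 215 in WT with IL-2 were nearly equal. No comparison passed the test (adjusted p = 0.154 for the intron and 0.18 for the upstream deletion). Rnf167 and Slc25a11 to Eno3 (200.3), B4galnt1 to Slc26a10 (198.5), Cars2 to Ing1 (194.5) and Igtp to Irgm2 (187.5) followed.

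The anchors with the most gene-end partners were in gene families and gene-dense clusters. The bin at the start of Gimap1, a GTPase gene of lymphocytes, had 11 gene-end loops to 7 other Gimap genes, of 7 to 92 kb and with 33.7 to 135.8 scaled contacts. Ppp1ca, which encodes a catalytic subunit of protein phosphatase 1, had 10 loops on chromosome 19, and the bin shared by the histone genes H2ac20 and H2ac21 had 9. Syvn1, an ER ubiquitin ligase, and Gimap3 also had 9 loops each. Ltb, which encodes lymphotoxin beta, had 8, among them loops to its neighbours Lta and Tnf. Of the Gimap loops, Gimap6 to Gimap7 at 10 kb held 182 and 149 in the intron deletion, against 122 and 125 in WT, and its intron deletion values lay above both WT values (log2 fold change 0.43 ± 0.15 (SE), adjusted p = 0.0345). Reads of closely similar gene copies can be assigned to the wrong copy. For families such as Gimap, histone, Ms4a and Irg genes, likeness was measured here only between the promoters of Igtp and Irgm2. Loops at these families are uncertain in this respect, and its part was not tested.

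Promoters at the anchors were GC-rich and held GC boxes, ETS and YY1 sites more often than promoters in general. Promoters of 300 bases were found in the RefSeq table for 1225 starts of 1098 genes at gene-end anchors. Their median GC content was 60.7%, against 61.7% for 2159 other promoters in bins that anchored a shared loop and 52.7% for all 32851 promoters in the table. GC boxes were in 65.6% of gene-end promoters, against 63.7% of the other anchor promoters and 35.7% of all. The ETS site CCGGAAGT was in 11.9%, against 6.99% and 3.89%, and the YY1 site AAGATGGC in 6.61%, against 4.35% and 2.75%. Other sites were less common than over all promoters: GAS sites were in 6.37%, against 7.55% and 8.3%, the AP-1 site TGANTCA in 3.35%, against 4.77% and 7.81%, and the RUNX site TGTGGT in 11.3%, against 13.2% and 16.8%. CCAAT boxes (39.0%, against 35.0% and 37.4%) and IRF sites (3.43%, against 3.2% and 3.44%) differed little, and the CTCF core (CC, any 3 bases, AGGGGGCG) was in 1.31%, against 1.76% and 0.883%. The CRE TGACGTCA was in 3.51%, against 3.2% and 1.79%, and the NRF1 site (GCGCA followed by TGCGC) in 2.29%, against 1.9% and 0.971%. Both strands were searched, sites of different motifs were allowed to overlap, and a match is a run of letters, not a bound site.

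Across IL-2 and control libraries, gene-end loops as a group held 4.16% to 4.48% of contacts. They took 4.31%, 4.26% and 4.43% of the contacts of shared loops in the intron deletion, upstream deletion and WT libraries with IL-2, against 4.31%, 4.16% and 4.48% in their controls. The means were 4.33% ± 0.09 with IL-2 and 4.32% ± 0.16 in control (SD, n = 3 each), and the ranges overlapped. An exact permutation test gave p = 1.0, where 0.1 is the smallest p that 3 libraries against 3 allow. The number listed at all varied more between libraries: 2420, 2042 and 3072 gene-end loops were listed with IL-2 in the intron deletion, upstream deletion and WT, against 1420, 1811 and 2514 in control. Of the 3584 gene-end loops listed in any library, 790 were in exactly 1 and 1147 in all 6.

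Few gene-end loops changed with IL-2. In edgeR's quasi-likelihood test over all shared loops, with genotype as a further term, 9 of the 1147 gene-end loops (0.785%) passed an adjusted p of 0.05, against 3.3% of all shared loops. Of these, 7 rose and 2 fell, where 2.56% of all shared loops rose and 0.731% fell. The median log2 fold change of gene-end loops was 0.024, and the median of all shared loops was 0.0. All 9 moved the same way in each of the 3 genotypes. The test that picked them used these same counts and favours such loops. This agreement, and the separation of their IL-2 and control values given below, is therefore no separate support.

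The 7 rises were at genes of different functions, 1 loop each. The loop from Sdf2l1, which encodes part of an ER chaperone complex, to Ccdc116 (chromosome 16, 15 kb) held scaled contacts of 48.1, 58.0 and 74.8 with IL-2, against 42.3, 29.2 and 29.2 in control, in the order intron deletion, upstream deletion and WT. The IL-2 values all lay above the control values, although the intron deletion libraries were close together (log2 fold change 0.88 ± 0.20 (SE), adjusted p = 0.00105). Becn1, which starts autophagy, to Psme3, which encodes a proteasome activator (chromosome 11, 14 kb), held 63.5, 85.0 and 79.7 with IL-2, against 50.03, 36.7 and 43.4 in control in the same order (log2 fold change 0.82 ± 0.17 (SE), adjusted p = 0.000373). Here too the groups did not overlap.

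Socs1, an IL-2 and STAT5 target whose product restrains cytokine signalling, was joined to Rmi2, a gene of DNA repair, across 60 kb and 4 whole genes. That loop held 57.2, 66.3 and 59.4 with IL-2, against 41.0, 35.6 and 29.2 in control, and every IL-2 value lay above every control value (log2 fold change 0.80 ± 0.19 (SE), adjusted p = 0.00312). Its Socs1 anchor, 16:10783001-10784000, held the finish of the short gene Socs1 and not its start. Coverage of the Socs1 and Rmi2 anchors had log2 fold changes of 0.44 and 0.77, neither of which passed the test (adjusted p = 0.0616 for both).

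Pfn1, the actin regulator profilin, is the common gene of a loop of 5 kb: the bin of its finish, which also holds the finish of the ubiquitin ligase gene Rnf167, was joined to the bin of its outermost start. It held 45.4, 41.5 and 48.0 with IL-2, against 28.2, 24.9 and 26.4 in control (log2 fold change 0.77 ± 0.21 (SE), adjusted p = 0.0141), with no overlap. Ccdc142 and Mrpl53 to the finish of Mogs, which encodes the glucosidase that first trims N-glycans, held 70.8, 71.5 and 83.8 with IL-2, against 59.0, 46.5 and 47.1 in control (log2 fold change 0.58 ± 0.17 (SE), adjusted p = 0.0208). Slc37a4, a glucose-6-phosphate transporter, to Rps25 and Trappc4, a ribosomal protein and a vesicle tethering factor, held 92.6, 89.1 and 102 with IL-2, against 71.8, 65.9 and 60.4 in control (log2 fold change 0.53 ± 0.15 (SE), adjusted p = 0.0216). Btbd19 to Plk3, a polo-like kinase, was the strongest loop to rise and had the smallest fold change, with 163, 201 and 193 with IL-2, against 142, 129 and 154 in control (log2 fold change 0.39 ± 0.12 (SE), adjusted p = 0.0313). In the last of these the IL-2 value of the intron deletion and the control value of WT were close, and in all of them the groups did not overlap.

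Both falls were start-to-start loops of 8 kb. Cybc1, a chaperone of the phagocyte NADPH oxidase, to Narf, a prelamin A binding protein, held 19.97, 24.9 and 17.1 with IL-2, against 34.6, 42.1 and 32.1 in control (log2 fold change -0.82 ± 0.20 (SE), adjusted p = 0.0154). Lat, the adaptor that relays T cell receptor signals, to Spns1, a lysosomal lipid transporter, held 44.5, 41.5 and 44.7 with IL-2, against 69.3, 56.2 and 75.4 in control (log2 fold change -0.63 ± 0.18 (SE), adjusted p = 0.0199). In both loops every IL-2 value lay below every control value.

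**Figure D2:**
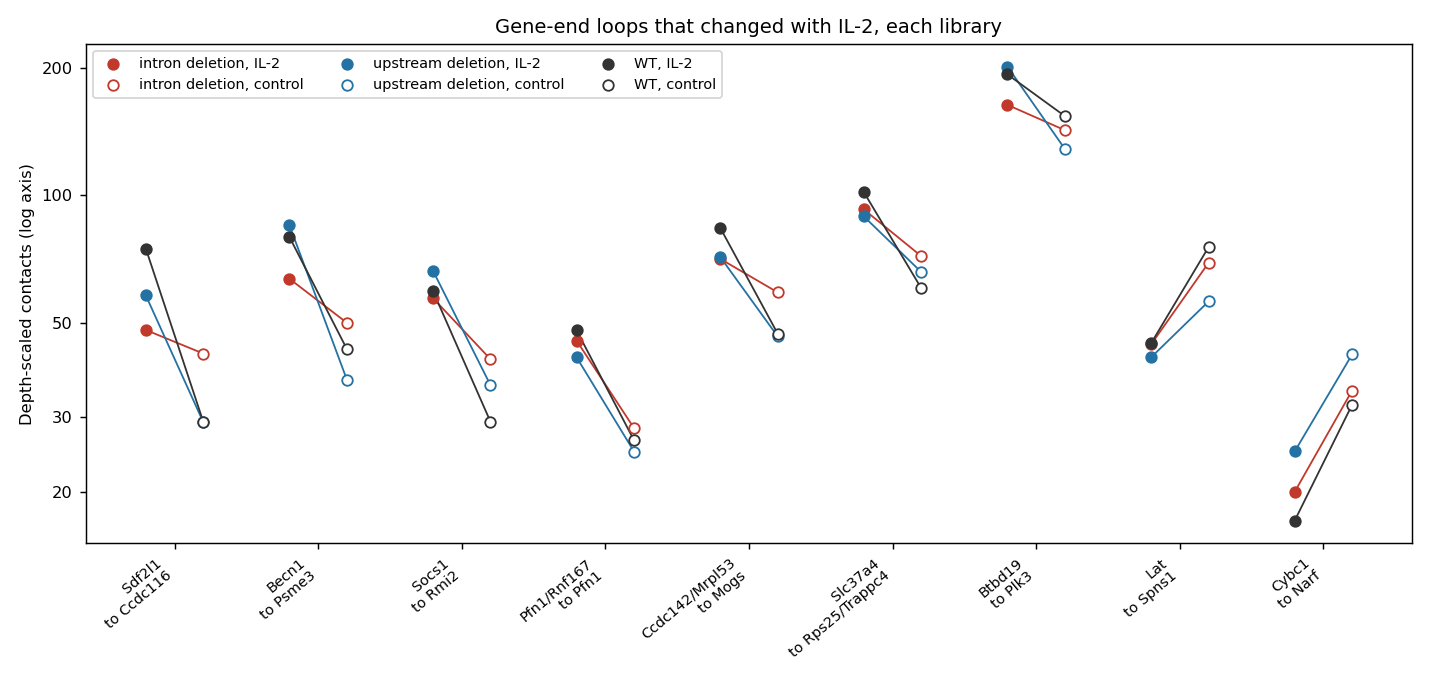
Depth-scaled contacts (y axis, log scale) of the 9 gene-end loops that passed the test with IL-2, with filled points for IL-2 libraries to the left and open points for control to the right, coloured by genotype and joined by a line within each genotype. The lines slope down to control in 7 loops and up in Lat to Spns1 and Cybc1 to Narf.

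Coverage of the anchors moved with these loops, but it comes from the same reads as the contacts and is no separate support. Both anchors' coverage had the sign of the loop in all 7 rises, with a median log2 change of 0.26 over the anchors, and in 1 of the 2 falls, and its part in the calls was not tested. None of the 1460 anchor bins passed the coverage test with IL-2, where 0.0% of all 18580 shared bins passed, although 450 of the anchor bins and 6801 of all bins had an unadjusted p under 0.05 in edgeR. The 9 calls were not stable: DESeq2 with the same terms called 0 gene-end loops, edgeR without the genotype term called 0, and leaving out any WT or upstream deletion library left 0, while leaving out either intron deletion library gave 31, among them all 9. Scaling by all listed contacts, which moved the median of all shared loops by -0.29, called 0 higher and 41 lower, and under it the 7 rises had log2 fold changes of 0.10 to 0.57. The IL-2 response differed from that of the other genotypes in 0 gene-end loops for the intron deletion. Of all shared loops 0.0357% passed there, 0.00357% higher and 0.0321% lower. An unadjusted edgeR p under 0.05 was found for 51 gene-end loops (4.45%), against 7.49% of all shared loops. For the upstream deletion the response differed in 0 gene-end loops, and 0.0% of all shared loops passed. An unadjusted edgeR p under 0.05 was found there for 26 gene-end loops (2.27%), against 3.48% of all shared loops.

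Loops of the lists of genes related to T cells and IL-2 were few, and most did not pass the test. IL-2 and STAT5 targets had 19 gene-end loops at 7 of 28 genes, of which 1 rose (Socs1) and 0 fell, with a median log2 fold change of 0.10. Over all gene-end loops 0.61% rose and 0.174% fell, and over all shared loops 2.56% and 0.731%. A single call in a list is too few to set against these shares, here and in the lists below. Cish, another STAT5-induced inhibitor of cytokine signalling, was joined to Mapkapk3 by contacts of 79.9, 109 and 84.6 with IL-2, against 65.4, 71.3 and 65.1 in control, which did not overlap but missed the threshold (log2 fold change 0.43 ± 0.15 (SE), adjusted p = 0.0909). A Cish end was also joined to Hemk1 and 6430571L13Rik by 43.6, 82.9 and 68.3 with IL-2, against 38.5, 48.6 and 50.9 in control (adjusted p = 0.105). Ltb to Lta, the lymphotoxin genes, held 42.7, 39.4 and 37.4 with IL-2, against 66.7, 56.2 and 52.8 in control and also did not overlap (log2 fold change -0.55 ± 0.19, adjusted p = 0.0797).

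T cell receptor and coreceptor genes had 8 loops at 5 of 16 genes, of which 1 fell (Lat), beside 0.174% of all gene-end loops and 0.731% of all shared loops. Cd3d to Cd3e, whose products are chains of CD3, held 76.2, 58.0 and 65.9 with IL-2, against 62.9, 87.5 and 83.9 in control, and the groups overlapped. Of 9 loops of immediate early and AP-1 genes, none passed with IL-2, and the strongest, Prdx2 and Rnaseh2a to Junb, held 146, 172 and 158 with IL-2, against 155, 161 and 196 in control. Cdkn1b, the cell cycle inhibitor p27, to Gpr19 was the strongest of 3 loops of quiescence genes, with 145, 98.5 and 107 with IL-2, against 158, 145 and 134 in control and adjusted p = 0.149.

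Housekeeping lists held most of the listed loops. Their rises stand beside 0.61% of all gene-end loops and 2.56% of all shared loops that rose. Ribosomal protein genes had 50 loops at 26 of 80 genes, with 1 rise (Rps25) and a median of 0.16, and Rpl4 and Zwilch to Snapc5 held 163, 162 and 200.1 with IL-2, against 135, 129.6 and 143 in control (log2 fold change 0.37 ± 0.12 (SE), adjusted p = 0.0529). Mitochondrial ribosome genes had 32 loops with 1 rise (Mrpl53) and a median of 0.10, proteasome genes 18 with 1 rise (Psme3) and 0.07, and translation factors 17 with none and 0.19. Respiratory chain genes had 22 loops (median -0.02), histones 54 (0.0), numbered zinc finger genes 41 (-0.02) and RNA polymerase and splicing genes 47 (-0.03), and in these 4 lists none passed with IL-2. Markers of other cell types had 2 loops: Rps19 to Cd79a, with 80.8, 86.0 and 95.2 with IL-2, against 61.6, 77.8 and 87.7 in control, and Tyrobp to Hcst, with 30.9, 32.1 and 39.9 with IL-2, against 38.5, 22.7 and 33.0 in control. Neither passed, and their part in the results was not tested.

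The intron deletion differed from WT in 51 gene-end loops, and how many passed and in which direction depended on the libraries and tool, as given below. In the same edgeR fit, these 51 of 1147 were 4.45%, against 11.3% of all shared loops. Of these 14 rose and 37 fell (1.22% and 3.23% of gene-end loops), where 6.27% of all shared loops rose and 5.03% fell. The median log2 fold change was -0.043 for gene-end loops and -0.009 for all shared loops. All 51 moved the same way with IL-2 and in control. They too were picked by the test on these same counts, so this agreement and the separation from WT given below are no separate support. The 37 falls, of log2 -1.13 to -0.45, included 22 start-to-start loops (59.5%, against 61.1% of loops that did not pass). The median distance was 10 kb in falls and in rises, against 18 kb in loops that did not pass.

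The falls were spread over 15 chromosomes and many kinds of genes. The start and the finish of Prdx2, a peroxide-reducing enzyme, were joined by a 5 kb loop that counts here because the start bin also holds the outermost start of Rnaseh2a, a subunit of RNase H2. It held 89.9 and 69.3 contacts in the intron deletion with IL-2 and in control, 154 and 156 in the upstream deletion, and 150.5 and 165 in WT. The intron deletion values were far below the other 4 (log2 fold change -0.96 ± 0.16 (SE), adjusted p = 4.73e-07). Lsm4, an RNA processing factor, to Jund, an AP-1 subunit, held 26.3 and 25.7 in the intron deletion, against 48.0 and 47.1 in WT (log2 fold change -0.87 ± 0.26 (SE), adjusted p = 0.0126). Plcb3 and Ppp1r14b to Fkbp2 held 32.7 and 37.2 in the intron deletion, against 88.7 and 59.4 in WT (log2 fold change -1.13 ± 0.22 (SE), adjusted p = 3.68e-05), and Haus4, of the augmin complex, to Ajuba, a scaffold protein, held 20.9 and 34.6 in the intron deletion, against 55.3 and 51.9 in WT (adjusted p = 0.00249).

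Others of the 10 largest falls follow. Zbtb45 to Trim28, the corepressor of KRAB zinc finger proteins, held 23.6 and 34.6 in the intron deletion, against 49.6 and 54.7 in WT (adjusted p = 0.00887). Surf6, a nucleolar protein gene, to Med22 and Rpl7a held 25.4 and 26.9 in the intron deletion, against 53.7 and 42.4 in WT (adjusted p = 0.0072), and Ep400, a chromatin remodeller, to Pus1 held 22.7 and 30.8 in the intron deletion, against 44.7 and 48.1 in WT (adjusted p = 0.0192). Tti2 to Mak16, a factor of ribosome assembly, and Rnf157 to Ubald2 had log2 fold changes of -0.84 ± 0.25 and -0.86 ± 0.23. In each of these loops both intron deletion values lay below both WT values. By list, beside the 3.23% of all gene-end loops and 5.03% of all shared loops that fell, 5 of 54 histone loops fell and 1 rose, 4 of 50 ribosomal protein loops fell, and 1 fell in each of the AP-1 (Jund), mitochondrial ribosome, zinc finger (Zbtb45) and RNA polymerase and splicing lists.

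The rises were fewer in this fit, and ran from log2 0.43 to 1.72, against -0.45 to -1.13 in the falls. H2bu2 to H2aw and Trim17, and Igtp to Irgm2, are described with the upstream deletion below. Hars and Hars2, the histidyl-tRNA synthetase genes, to Zmat2, a splicing factor, held 65.3 and 51.3 in the intron deletion, 22.8 and 28.1 in cells with the upstream deletion, and 24.4 and 22.6 in WT (intron deletion, log2 fold change 1.32 ± 0.24 (SE), adjusted p = 3.25e-06). Gm33887 to Degs1, which makes ceramide, held 54.5 and 38.5 in the intron deletion, 41.5 and 42.1 in cells with the upstream deletion, and 16.3 and 24.5 in WT (intron deletion, log2 fold change 1.24 ± 0.26 (SE), adjusted p = 0.000113; upstream deletion, adjusted p = 0.0564). In the intron deletion, coverage of its Gm33887 anchor rose by 1.91 on the log2 scale (adjusted p = 0.000177). Bbof1 to Rnf113a2, a gene that lies inside Bbof1, held 59.9 and 44.9 in the intron deletion, 21.8 and 30.2 in cells with the upstream deletion, and 25.2 and 27.4 in WT (intron deletion, log2 fold change 1.03 ± 0.23 (SE), adjusted p = 0.000479). In these 3 loops the intron deletion values lay above the WT values, and in Hars and Bbof1 also above the upstream deletion. B3gat3 to Eml3 and Rom1 and Ms4a6c to Ms4a6b had log2 fold changes of 0.77 ± 0.24 and 0.68 ± 0.20 (SE).

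**Figure D3:**
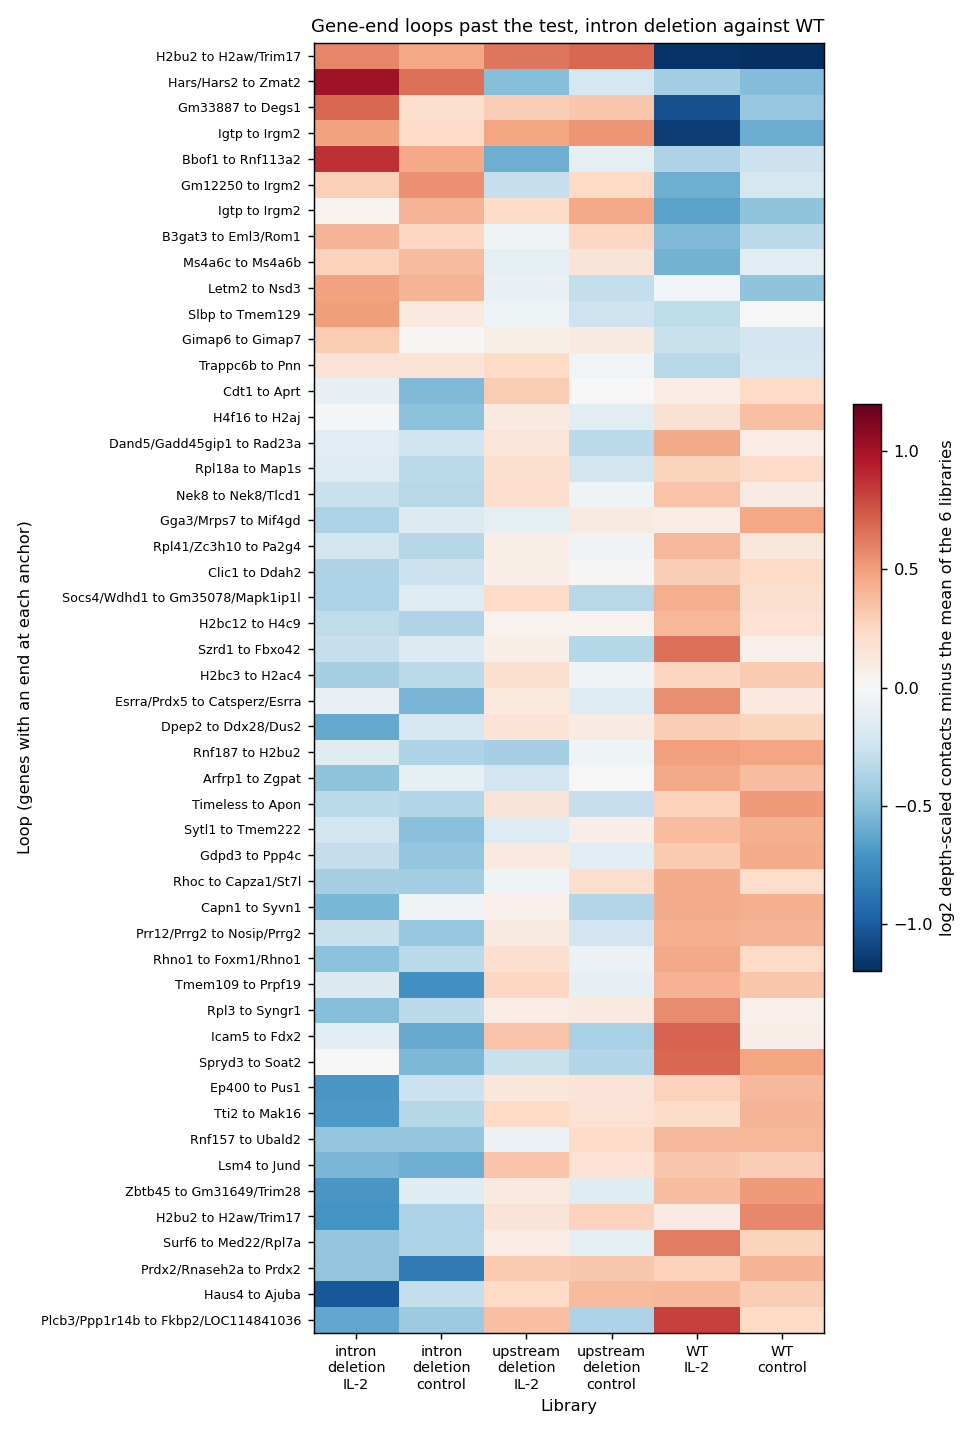
Of the 51 gene-end loops that passed the test for intron deletion against WT, 50 are drawn in order of log2 fold change, with 1 column per library and the colour giving log2 depth-scaled contacts minus the loop's mean over the 6 libraries. The 13 rises drawn at the top and the 37 falls below them have the same sign with IL-2 and in control.

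Coverage of the anchors, from the same reads as the contacts, moved with the loops here as well. Of the 1460 anchor bins, 172 rose and 361 fell in coverage in the intron deletion, which is 36.5%, where 46.2% of all shared bins passed (21.7% higher and 24.5% lower). An anchor passed in the direction of the loop in 34 of the 37 falls and 11 of the 14 rises, and in 494 of the 1096 loops that did not pass, and the part of coverage in the calls was not tested. The 51 calls became 3 in DESeq2 (H2bu2 finish to H2aw and Trim17, Igtp to Irgm2 at 15 kb, and the Prdx2 loop), 11 without the treatment term, 4 without the WT IL-2 library, 12 without the WT control library and 9 without the intron deletion IL-2 library. Scaling by all listed contacts, which moved the median of all shared loops to 0.37, called 125 higher and 2 lower, and the balance of rises and falls did not hold under every setting: rises against falls were 2 and 1 in DESeq2, 6 and 5 without the treatment term, 3 and 1 without the WT IL-2 library, 7 and 5 without the WT control library, and 4 and 5 without the intron deletion IL-2 library.

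The upstream deletion differed from WT in 3 gene-end loops (0.262%, against 0.0785% of all shared loops), and all 3 rose (0.0464% of all shared loops did). The median log2 fold change of gene-end loops was -0.09, and that of all shared loops 0.003. All 3 lay within 11:58199001-58955000, and both loops from Igtp share the Irgm2 start bin, so the 3 calls are not 3 separate loci. Since both deletions were compared with the same WT libraries, their values are given side by side.

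H2bu2 and H2aw are histone H2B and H2A genes next to Trim17, a ubiquitin ligase gene, and the short H2bu2 has its start and finish in adjoining bins. The 5 kb loop from the finish bin, 11:58949001-58950000, to the bin with the start of H2aw and an end of Trim17, 11:58954001-58955000, held 185 and 171 contacts in the intron deletion with IL-2 and in control, 193 and 199 in the upstream deletion, and 54.5 and 53.8 in WT. All 4 deletion libraries were over 3 times the WT values, with a log2 fold change of 1.85 ± 0.16 in the upstream deletion (adjusted p = 4.3e-25) and 1.72 ± 0.17 in the intron deletion (adjusted p = 2.76e-21). From the start bin, 11:58948001-58949000, to the same partner the loop held 25.4 and 32.1 in the intron deletion, 46.6 and 50.8 in cells with the upstream deletion, and 44.7 and 62.2 in WT. This one fell in the intron deletion (log2 -0.89 ± 0.25, adjusted p = 0.00827), and its upstream deletion values overlapped those of WT.

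Coverage of the 2 H2bu2 bins, from the same reads as the contacts, moved in opposite ways. The finish bin had 852 and 834 reads in the intron deletion, 772 and 889 in cells with the upstream deletion and 394 and 541 in WT, scaled to equal depth. The start bin had 272 and 255, 338 and 368 and 511 and 642 in that order. All 4 of these changes passed the coverage test, with log2 fold changes of 0.84 and -0.70 in the upstream deletion and 0.87 and -1.11 in the intron deletion. Over both bins together, contacts with H2aw and Trim17 were 210.6 and 202.7 in the intron deletion, 239.4 and 249.5 in cells with the upstream deletion, and 99.3 and 116.0 in WT, so the sum was also higher in all 4 deletion libraries. Rnf187, another ubiquitin ligase gene, to the H2bu2 start bin held 34.5 and 29.5 in the intron deletion, 29.0 and 36.7 in cells with the upstream deletion and 53.7 and 52.8 in WT. It fell in the intron deletion (adjusted p = 0.0321) and missed the threshold in the upstream deletion (adjusted p = 0.29). Rnf187 to the H2bu2 finish bin held 37.2 and 29.5 in the intron deletion, 39.4 and 37.8 in cells with the upstream deletion and 35.0 and 40.5 in WT, and passed in neither (log2 -0.15 ± 0.25 and 0.04 ± 0.24, adjusted p = 0.773 and 0.982).

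Igtp and Irgm2 encode interferon-inducible GTPases that act against intracellular pathogens. Their starts, 15 kb apart, were joined by 241 and 203 contacts in the intron deletion with IL-2 and in control, 239 and 248 in the upstream deletion, and 78.9 and 114 in WT. Every deletion library lay well above both WT libraries, with a log2 fold change of 1.35 ± 0.14 in the upstream deletion (adjusted p = 5.98e-17) and 1.23 ± 0.15 in the intron deletion (adjusted p = 3.34e-14). The finish of Igtp to the start of Irgm2, at 7 kb, held 82.6 and 106, 93.3 and 110.2, and 51.2 and 57.5 in that order, again with no overlap (upstream deletion, log2 0.90 ± 0.19, adjusted p = 0.0043; intron deletion, log2 0.78 ± 0.19, adjusted p = 0.00119). Gm12250, a further gene of this family also known as Irgb10, to Irgm2 held 49.0 and 59.0, 33.2 and 47.5, and 26.9 and 34.9. It rose in the intron deletion (log2 fold change 0.81 ± 0.24 (SE), adjusted p = 0.0125), and its upstream deletion and WT values overlapped.

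Loops of the Irgm2 start bin were higher in general. The Irgm2 start bin, 11:58214001-58215000, had 8683 and 8399 reads of scaled coverage in the intron deletion, 7708 and 8456 in cells with the upstream deletion and 4934 and 5469 in WT, a log2 fold change of 0.72 for the intron deletion (adjusted p = 0.000625) and 0.64 for the upstream deletion (adjusted p = 0.023). Of its 22 shared loops, which include those to Igtp and Gm12250, 16 rose in the intron deletion and 22 had a positive log2 fold change, with a median of 0.79. In the upstream deletion 4 rose and 21 were positive, with a median of 0.51. Of all shared loops, 6.27% rose and 5.03% fell in the intron deletion, and 0.0464% rose and 0.0321% fell in the upstream deletion. The 22 loops have this bin in common and are not independent. Coverage of the Igtp start bin fell by 0.39 on the log2 scale in the intron deletion (adjusted p = 0.00472), and of its 10 loops to other partners 0 rose and 1 fell there, with a median of -0.35. In the upstream deletion its coverage did not pass (log2 -0.17, adjusted p = 0.172), and of the 10 loops 0 rose and 0 fell, with a median of -0.20. The Igtp counts leave out its loop to Irgm2, while the Irgm2 counts include it. Igtp and Irgm2 share long identical stretches of promoter, as the printed sequences show, so the assignment of reads between them is uncertain, and its part in the result was not tested.

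**Figure D4:**
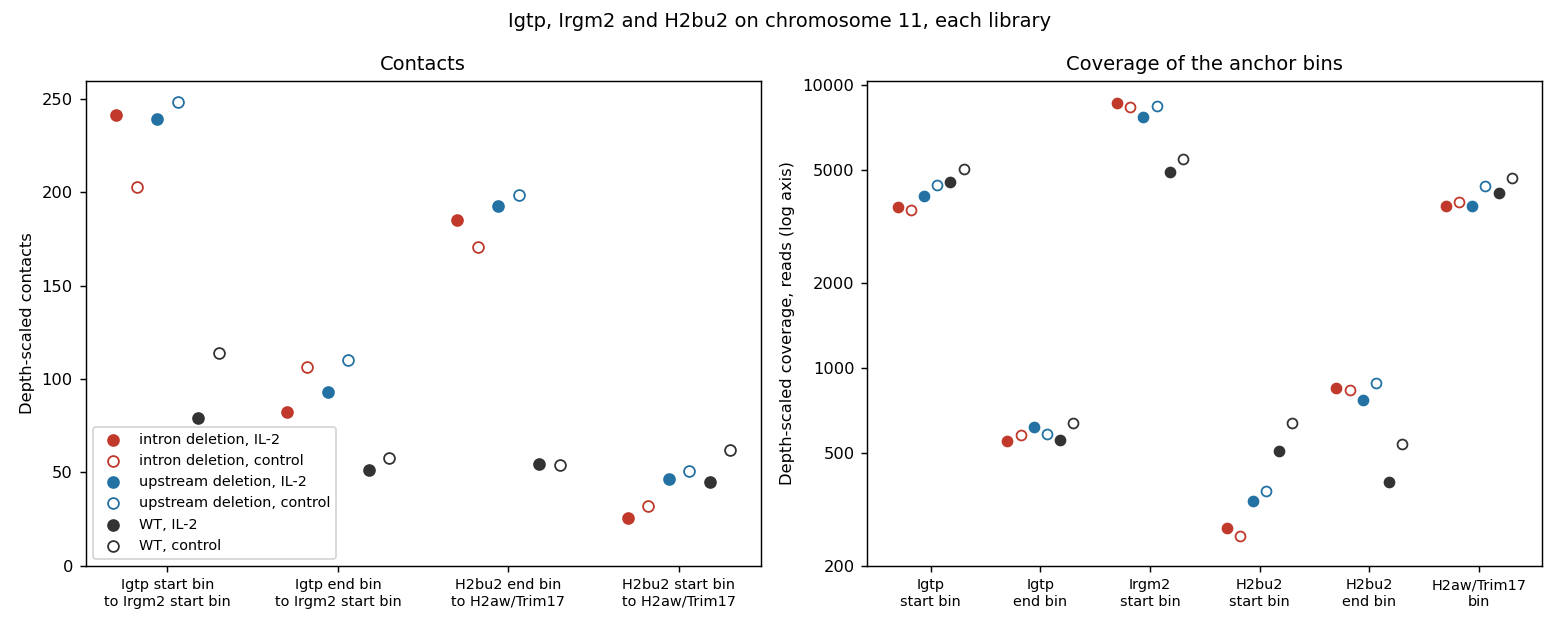
Depth-scaled contacts (left, linear axis) of 4 gene-end loops on chromosome 11 and depth-scaled coverage (right, log axis) of their anchor bins, with 1 point per library, filled for IL-2 and open for control, and the deletion genotypes left of WT. In 3 of the loops, and in the coverage of the Irgm2 start bin and the H2bu2 finish bin, all 4 deletion libraries lie above both WT libraries.

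Of the 3 upstream deletion calls, DESeq2 with the same terms and the fit without the treatment term each kept 2. Leaving out any WT or upstream deletion library also kept 2, which were H2bu2 finish to H2aw and Trim17 and Igtp start to Irgm2 start throughout. Leaving out either intron deletion library gave 7. Over all gene-end loops, 106 (9.24%) had an unadjusted edgeR p under 0.05 in the upstream deletion, against 8.18% of all shared loops. The coverage of 5 anchor bins rose and that of 8 fell (0.89%, against 1.69% of all shared bins, of which 1.21% rose and 0.484% fell).

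**Figure D5:**
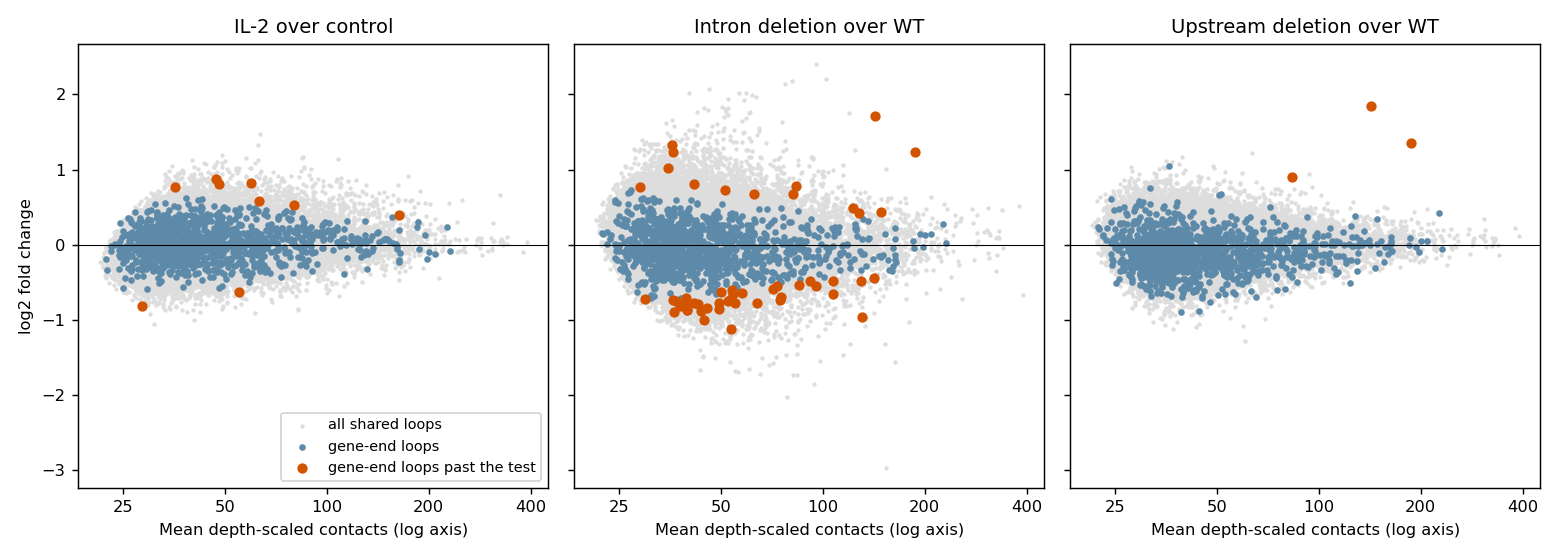
Log2 fold change (y axis) against the mean of depth-scaled contacts (x axis, log scale) for IL-2 over control, intron deletion over WT and upstream deletion over WT. All shared loops are grey, gene-end loops blue, and gene-end loops past the test orange: 9, 51 and 3 of 1147.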

How the data were processed

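The 6 HiChIP libraries of a series of 25 samples were analysed; the other 19 samples, all ChIP-seq, were left out. The submitters' processing notes name CASAVA, Bowtie2 2.2.6, HiC-Pro and mm10 (GRCm38). The deposited tables follow the layout of the loop caller FitHiChIP, of a version not given in the sources used here. They have no header lines, so columns were read by that layout and checked against the values. Each row holds the raw contact count of a pair of 1 kb bins and the raw coverage count of each bin, as deposited by the authors. No listed pair had fewer than 20 contacts or lay closer than 5 kb, so a pair that is not listed was not counted as 0, and loops lost from a library are outside the comparisons. The sources used here do not say whether a caller threshold was applied.

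Gene ends came from RefSeq on GRCm38.p6 (21883 protein-coding genes, 17491 with a strand). A bin holding either annotated end of a gene was a gene-end bin, and a loop counted when its bins held ends of different genes, also where they shared a further gene (53 loops). A loop also counted where the genes overlap and both bins lie in the body of the same gene. Such loops are not in the class of loops inside one gene. All 28033 shared loops entered edgeR 4.0.16 (R 4.3.3; quasi-likelihood, TMM, genotype and treatment as additive terms, 2 residual degrees of freedom, common dispersion 0.00264, infinite prior degrees of freedom). Coverage of 18580 shared bins was tested likewise. Contacts and coverage come from the same reads, so a change in coverage is no separate support for a change in a loop. P-values were adjusted by Benjamini-Hochberg over all loops or bins, threshold 0.05. With 1 library per genotype and treatment, p-values rest on how the effects differ between libraries, pooled over loops, which may be technical. Scaled contacts are counts divided by the TMM library size relative to the mean. The edgeR test of IL-2 was also run on simulated counts, with a dispersion close to the fitted one and no difference between genotypes. That simulation cannot show whether calls from 1 library per genotype and treatment are reliable.

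The gene-end loops, the 17 gene lists and the 11 motifs were chosen with earlier results of these data known. Named loops were up to 10 largest rises and 10 largest falls past the threshold that moved alike in each genotype or treatment, the 10 with most contacts, loops of the 10 anchors with most partners, up to 4 per list by the smallest p with IL-2, and 3 on each side of the distance limit; loops beside these at H2bu2 and Irgm2 were added after their values were seen. Alternatives were DESeq2 1.42.0, other scalings, a minimum mean of 40 contacts, other members and leaving out each library. A few loops the naming rule picks are not reported here.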

Additional observations from a re-analysis of the deposited data

How the results depend on the processing

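Counts of calls depended on tool, scaling and library. With IL-2, the 9 gene-end loops past the threshold became 0 in DESeq2, 0 without the genotype term, 41 with scaling by all listed contacts, and 0 to 31 when 1 library was left out. For the intron deletion, 51 became 3 in DESeq2, 127 with scaling by all listed contacts, 11 without the treatment term, and 4 to 65 when 1 library was left out. For the upstream deletion, 3 became 2 to 7 when 1 library was left out. Coverage calls at anchors ranged from 0 to 759 with IL-2, from 121 to 899 for the intron deletion and from 0 to 593 for the upstream deletion when 1 library was left out. The difference in the share of contacts (0.016 percentage points) turned to -0.131 over all listed loops, and ran from -0.063 to 0.098 when 1 library was left out. The cause of these changes was not tested. DESeq2's size factors in edgeR, TMM within strata of distance, and a minimum mean of 40 contacts kept each total within 1.5 times, but with the minimum mean, over 644 loops, IL-2 calls were 6 higher and 5 lower, against 7 and 2. Loops under 20 contacts in any library are not covered, and 1 library per genotype and treatment limits every comparison. No paired analysis was possible because the labels give no replicate numbers (the deposited tables are named rep2) and each genotype and treatment has 1 library; the genotype term compares IL-2 with control within genotypes.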
